A study of Mus musculus with 4 samples.

Results

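NK and innate lymphoid cells were taken as the quality-passing barcodes that carried at least 3 UMIs (unique molecular identifiers, each standing for a captured transcript) summed over Nkg7, Ncr1, Klrb1c, Klre1, Gzma, Gata3 and Il7r, and none of Cd3d, Cd3e and Cd3g. A cell also had to hold, per 10000 of its UMIs, less than 5 of the C1q genes (C1qa, C1qb, C1qc), less than 5 of Lyz2, less than 30 of Col1a1, Col1a2, Col3a1, Dcn and Gsn, and less than 20 of Cdh5, Cldn5 and Gpihbp1, which kept most macrophages, stromal cells and endothelial cells out. The rule kept 154 of 28887 cells. These genes chose the cells, so their levels are given as a description and were not tested.

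The study profiled the stromal vascular fraction (SVF), the non-adipocyte cells freed by digesting a fat depot, from the brown adipose tissue (BAT) of mice to follow how its cell types change in obesity and type 2 diabetes. All mice were labelled C57BL6/J, and the 4 libraries were 1 for each group: WT mice at 10 weeks of age, DB_DB mice at 8 weeks and at 16 weeks (db/db 8w and db/db 16w in the plots), and mice on a high-fat diet (HFD) labelled 10 weeks old. The db/db mice carry a leptin receptor mutation, and the methods describe HFD as WT animals given the diet for 10 weeks from adulthood, and each library as a pool of several animals captured after a sort whose gate is not given in the sources used here. No group had a second library, so differences between groups carry intervals for counting error only, and genotype, diet, age, animal pool and library cannot be told apart. Intervals of gene levels count each UMI as an independent draw, so they leave out the spread between cells.

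NK cells kill target cells by releasing granzymes and perforin and secrete Ifng and chemokines. They read their targets through activating and inhibitory receptors, many of them encoded in the NK gene complex. Group 2 innate lymphoid cells (ILC2s) depend on the transcription factor Gata3 and on Il7r, carry Il1rl1 (the IL-33 receptor) and secrete Il5, Il13, Csf2 and Areg. In adipose tissue, ILC2s are known for sustaining eosinophils and alternatively activated macrophages and for promoting thermogenesis, while NK cells and ILC1s are known as sources of Ifng in obesity.

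Quality-passing cells numbered 5944 in WT, 11648 in 8-week db/db, 5833 in 16-week db/db and 5462 in HFD, which was 71.5%, 63.6%, 89.5% and 31.3% of the barcodes. Their median depth ran from 2733 UMIs in 16-week db/db to 6218.5 in WT, and their median mitochondrial share from 0.799% in 16-week db/db to 10.5% in HFD. The 16-week db/db library stood apart in a further way. Xist, the RNA that silences an X chromosome in female cells, had a UMI in 26 of its 56 NK and innate lymphoid cells (46.4%) and in 37.6% of its other cells, against 0 of these cells in each other library, although the methods describe male mice. Y-linked UMIs were in 8 of the 56 cells, all 8 on the NK side defined below, against 14 of 20, 36 of 57 and 13 of 21 cells in WT, 8-week db/db and HFD. No barcode of these cells was shared between libraries as such a cell, out of 91 quality-passing barcodes shared over the library pairs.

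The 154 cells fell into 3 sets. A cell was put on the NK side when its UMIs of Nkg7, Ncr1, Klrb1c, Klre1 and Gzma outnumbered those of Gata3 and Il7r, which 59 cells met. The other 95 cells were on the Gata3/Il7r side, and 50 of them had at least 1 Gata3 UMI while 45 were there on Il7r UMIs alone. The split by Gata3 was made after the values were seen.

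Genes that the rule did not use set the 3 sets apart. A list of 17 NK genes outside the rule (Prf1, Gzmb, Klrd1, Klrk1, Eomes, Il2rb and others) had more UMIs than the ILC2 or the macrophage list in 57 of the 59 NK-side cells. A list of 22 ILC2 genes (Il1rl1, Areg, Rora, Il13, Il5 and others) was the highest of the 3 in 49 of the 50 cells with Gata3 UMIs, and 34 of these 50 carried Il1rl1, against 0 of the 59 NK-side cells. The 45 cells with Il7r UMIs only went against their label. The macrophage list (Apoe, Mrc1, Cd68, Trem2, Pf4, Csf1r, Adgre1) led in 25 of them, 21 held at least 20 UMIs of it, 22 had Csf1r UMIs, and 7 held at least 10 UMIs of a list of migratory dendritic cell genes such as Ccr7 and Ccl22. Only 8 of the 45 were led by the ILC2 list and 11 by the NK list. These cells are called Il7r-only cells here, and results are given without them where they carry weight.

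**Figure D1:**
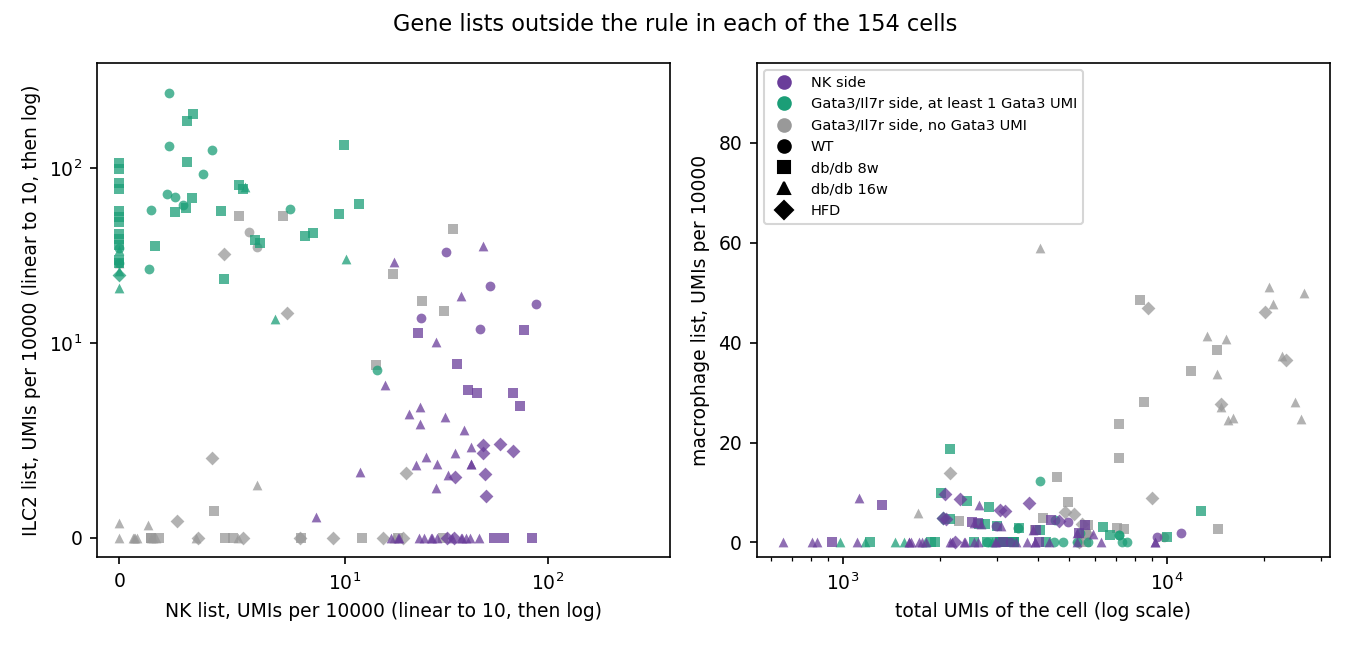
Each point is 1 of the 154 cells, coloured by set and shaped by library. The left panel sets the NK list (x) against the ILC2 list (y), both in UMIs per 10000 with axes linear to 10 and logarithmic above, and the right panel sets the cell's total UMIs (log axis) against the macrophage list per 10000. NK-side cells and cells with Gata3 UMIs lie in different corners on the left, while Il7r-only cells make up the points with high macrophage-list levels and most of those over 10000 UMIs on the right.

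The Il7r-only cells were also the deepest. Of the 45, 18 held over 10000 UMIs, against 1 of the 59 NK-side cells and 2 of the 50 cells with Gata3 UMIs. In 16-week db/db their median was 15504 UMIs, and macrophages of that library (at least 5 C1q UMIs per 10000, no Cd3) had a median of 5047. Trem2, a lipid-sensing receptor of macrophages, had 0, 59, 322 and 87 UMIs in the Il7r-only cells of WT, 8-week db/db, 16-week db/db and HFD. Ccr7, which guides dendritic cells to lymph nodes, had 1, 50, 0 and 50, nearly all from the 3 and 4 cells that carried it in 8-week db/db and HFD. The whole macrophage list had 7 of 7 genes with UMIs in the Il7r-only cells of each obese library. By contrast, its summed level was 0 to 490.2 CPM (UMIs scaled to 1e+06 per summed class) in the cells with Gata3 UMIs and 81.8 to 591.8 in NK-side cells, where Csf1r was detected in 4 of 59 cells.

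NK and innate lymphoid cells were a small share of every library and made up the largest share of quality-passing cells in 16-week db/db. They numbered 20 in WT (0.336% of quality-passing cells, exact 95% interval 0.206 to 0.519%), 57 in 8-week db/db (0.489%, 0.371 to 0.634%), 56 in 16-week db/db (0.960%, 0.726 to 1.24%) and 21 in HFD (0.384%, 0.238 to 0.587%). Relative to WT the share was 2.85 times as large in 16-week db/db (1.69 to 5.02), 1.45 times in 8-week db/db (0.861 to 2.56) and 1.14 times in HFD (0.589 to 2.22). Only the interval for 16-week db/db lay wholly above 1, and it covers counting error alone. That ratio depended on the denominator: with stromal and endothelial cells left out it was 1.14 (0.676 to 2.01; 1.57% in WT and 1.80% in 16-week db/db), and among cells with a Ptprc (CD45) UMI it was 1.49 (0.859 to 2.67). With the limits on macrophage, stromal and endothelial genes dropped, HFD had the largest share, at 10.9% or 596 cells, of which 26 were on the NK side. Il7r, a gene of the rule, had a UMI in 1.05%, 11.8%, 19.1% and 45.2% of macrophages of WT, 8-week db/db, 16-week db/db and HFD. The 10.9% is therefore not a share of lymphoid cells alone, and the part of macrophages in it was not tested.

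The order of the libraries depended on which of the 3 sets was counted. NK-side cells numbered 5 in WT, 10 in 8-week db/db, 35 in 16-week db/db and 9 in HFD, or 25%, 17.5%, 62.5% and 42.9% of the cells chosen. Their share of all cells in 16-week db/db was 7.13 times that in WT (2.78 to 23.3), while 8-week db/db stood at 1.02 times (0.318 to 3.81) and HFD at 1.96 times (0.590 to 7.44). The ratio for 16-week db/db also depended on the denominator. With stromal and endothelial cells left out, NK-side cells were 5 of 1270 in WT and 35 of 3110 in 16-week db/db. Among cells with a Ptprc UMI they were 5 of 1087 and 31 of 1606. Both give a smaller ratio. Cells with Gata3 UMIs went the other way, with 13, 30, 6 and 1 cells and shares of 0.219%, 0.258%, 0.103% and 0.0183%. HFD held 0.0837 times the WT share of them (0.00197 to 0.557), and the interval for 16-week db/db included equality (0.470 times, 0.147 to 1.33). T cells (at least 2 Cd3 UMIs under the same limits) numbered 27, 76, 25 and 13, and their share in 16-week db/db was 0.944 times that in WT (0.525 to 1.69). Without the Il7r-only cells the chosen cells made up 0.303%, 0.343%, 0.703% and 0.183% of the 4 libraries.

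**Figure D2:**
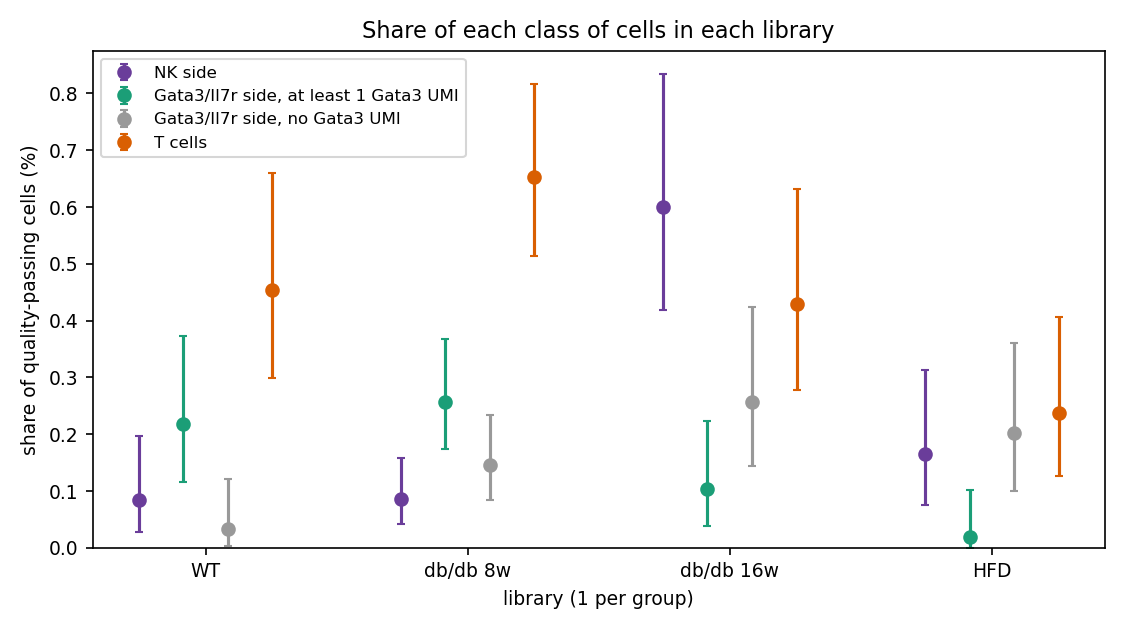
Share of quality-passing cells (y, percent) that were NK-side cells, cells with Gata3 UMIs, Il7r-only cells or T cells in each library (x), with exact 95% binomial bars for counting error. The NK-side point of 16-week db/db (35 cells) stands above the other 3 libraries, and cells with Gata3 UMIs are highest in WT and 8-week db/db (13 and 30 cells) and lowest in HFD (1 cell).

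The shares also moved with depth and with the mitochondrial limit. Each cell cut to 1000 UMIs and asked for 2 marker UMIs gave 0.157%, 0.349%, 0.849% and 0.238%, with 16-week db/db still highest. With the mitochondrial limit at 25% in place of 15%, HFD held 64 cells rather than 21, 35 of them on the NK side, and with a limit of 10% it held 7 cells with 0 on the NK side, while the counts of 16-week db/db stayed at 56 and 35 under both limits. The 9 NK-side cells of HFD had a median mitochondrial share of 13.7%, close to the limit. Among cells with a Ptprc UMI the shares were 1.84%, 1.48%, 2.74% and 0.746%. Cells just inside the marker threshold, with 3 UMIs, numbered 1, 12, 15 and 4, and cells just outside, with 2 UMIs and every other limit met, numbered 3, 15, 28 and 10.

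Summed over cells, chemokine genes of NK-side cells differed between WT and the obese libraries in both directions. Ccl5 and Xcl1 had their lowest summed level in the 5 WT cells, and Ccl4 its highest. Ccl5 (RANTES), which draws T cells and monocytes and was not part of the rule, had 50, 220, 620 and 103 UMIs in 3 of 5, 7 of 10, 33 of 35 and 9 of 9 NK-side cells, or 1582, 6500, 5635 and 4064 CPM. The log2 ratio to WT was 2.04 in 8-week db/db (1.59 to 2.51), 1.83 in 16-week db/db (1.42 to 2.28) and 1.36 in HFD (0.86 to 1.88), against a median of -0.10, -0.12 and -0.17 over all genes with at least 20 UMIs in those pairs of libraries. The WT level of Ccl5 depended on a few cells. Its 50 UMIs came from cells with 2973, 3278 and 4975 UMIs in total. The deepest WT cells, with 9315 and 11067, held 0 Ccl5 UMIs and lowered the summed level. After cutting cells to 1000 UMIs, 3 of 5, 6 of 9, 29 of 32 and 9 of 9 NK-side cells held Ccl5. The exact interval of WT overlapped those of the obese libraries. T cells of the same libraries also carried Ccl5, with a UMI in 1 of 27, 26 of 76, 19 of 25 and 8 of 13 cells. Xcl1, which attracts cross-presenting dendritic cells, had 2, 26, 40 and 10 UMIs in NK-side cells and log2 ratios of 3.60 (1.60 to 6.72), 2.52 (0.58 to 5.62) and 2.64 (0.41 to 5.87). Ifng had 4, 22, 17 and 4 UMIs, with a ratio clear of 0 in 8-week db/db alone (2.36, 0.80 to 4.36). Those 22 UMIs came from 4 of 10 cells.

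The chemokine Ccl4 ran against Ccl5, at 26, 5, 21 and 11 UMIs and 822.6, 147.7, 190.9 and 434 CPM. Of the 20 cytokine and chemokine genes, 5 had at least 20 UMIs over WT and 8-week db/db in NK-side cells, and 3 of them were at least 2-fold higher (Ifng, Ccl5, Xcl1) and 1 at least 2-fold lower (Ccl4) in 8-week db/db. Over all 321 such genes 8.41% were at least 2-fold higher and 12.8% at least 2-fold lower. In 16-week db/db against WT the list had 5 such genes, 2 higher (Ccl5, Xcl1) and 2 lower (Ltb, Ccl4), where 15.7% and 18.7% of 796 genes were past the same folds.

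The granule genes Gzma and Nkg7 chose these cells, so their levels are a description. Gzma, a granzyme, had 5 UMIs in 1 of 5 cells in WT, 99 in 7 of 10 in 8-week db/db, 318 in 34 of 35 in 16-week db/db and 39 in 6 of 9 in HFD, or 158.2, 2925, 2890 and 1539 CPM. The 5 UMIs of WT came from 1 cell, so the WT level rests on very few cells. Among macrophages, which should lack it, Gzma had a UMI in 0% (WT), 0.415% (8-week db/db), 0.189% (16-week db/db) and 0.341% (HFD) of cells at median depths of 4753, 2262, 5047 and 5595 UMIs, against medians of 4975, 3539, 2623 and 2299 in NK-side cells. Nkg7, a granule membrane protein, stood at 917.5, 827.3, 718.1 and 946.9 CPM.

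NK receptor and adaptor genes had no common direction against WT. Of those with at least 20 UMIs over both libraries, 1 of 3 in 8-week db/db was at least 2-fold higher (Tyrobp) and 0 lower, 2 of 6 in 16-week db/db were higher (Klra3, Tyrobp) and 1 lower (Cd226), and 1 of 4 in HFD was higher (Tyrobp) and 1 lower (Cd226). The share of all 280 such genes past these folds in HFD was 8.57% higher and 17.9% lower, and the shares for the db/db libraries are those given above. Klrd1 (CD94), the shared chain of the NKG2 receptors, had 15, 17, 54 and 11 UMIs in NK-side cells, or 474.6, 502.3, 490.8 and 434 CPM, and no library's interval against WT excluded equality. Fcer1g, a signalling adaptor of activating receptors, lay at 1012, 1241, 1300 and 946.9 CPM. Tyrobp (DAP12), another adaptor, was lowest in WT with 11 UMIs in 3 of 5 cells and 348 CPM, against 1330, 945.3 and 1460, and its log2 ratios were 1.93 (0.96 to 3.03), 1.44 (0.54 to 2.49) and 2.07 (1.07 to 3.19). T cells of the same libraries had 0, 5, 41 and 12 Tyrobp UMIs. A lowest level in WT was thus not particular to NK-side cells. Cd226 (DNAM-1), an activating receptor, was highest in WT, at 16, 2, 4 and 6 UMIs. The Ly49 receptor genes Klra3 and Klra7 had 1 and 3 UMIs in WT, 9 and 14 in 8-week db/db, 43 and 11 in 16-week db/db, and 3 and 9 in HFD, and reads of these near-identical paralogs may have been split between them by the counting.

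Several transcription factor and cytokine receptor genes were highest in the WT cells, but others were not. Among transcription factors with at least 20 UMIs over both libraries, 1 of 4 in 8-week db/db was at least 2-fold higher (Eomes). Lower there were 2 (Rora, Ets1). In 16-week db/db 2 of 5 were higher (Runx3, Bhlhe40) and 2 lower (Rora, Ets1). In HFD 0 of 4 were higher and 3 lower (Rora, Id2, Ets1). Of cytokine receptors 0 were higher, with 2 of 4, 2 of 4 and 1 of 3 lower. Shares over all genes are given above. Rora, a nuclear receptor needed by ILC2s and also found in ILC1s, had 31, 10, 13 and 1 UMIs in 4 of 5, 6 of 10, 11 of 35 and 1 of 9 NK-side cells, and log2 ratios to WT of -1.73 (-2.92 to -0.67), -3.05 (-4.11 to -2.08) and -4.64 (-9.98 to -2.05). Ets1, a factor of lymphocyte development, was at 1266 CPM in WT and at 502.3, 263.6 and 434 in the obese libraries. Il18r1, a chain of the IL-18 receptor, had 20, 5, 20 and 4 UMIs, a ratio below 0 in each obese library, while its partner chain Il18rap stayed at 253.1, 354.5, 245.4 and 315.6 CPM. Rora and Il18r1 are also on the ILC2 list. A single WT cell, with 11067 UMIs in total, held 37 of the 68 UMIs of that list in WT NK-side cells. It held 35 UMIs of the NK list. The part of that cell in the WT levels of Rora and Il18r1 was not tested. Il2rb, the IL-2 and IL-15 receptor chain on which NK cells depend, was at 1329, 886.3, 409 and 1026 CPM. Only the counting interval of 16-week db/db excluded equality with WT (-1.70, -2.34 to -1.06). Eomes, which marks mature NK cells, had 5, 15, 10 and 5 UMIs, with intervals that all included equality.

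The 17 NK genes outside the rule therefore gave no common direction. Their summed level in NK-side cells was 3891 CPM in WT, 5377 in 8-week db/db, 2690 in 16-week db/db and 4577 in HFD. Of the 24 receptor genes the sum was 3290, 4845, 4099 and 5563. ILC1 genes (Cxcr6, Itga1, Ltb, Inpp4b and others) summed to 1772, 1182, 599.9 and 434 CPM, and Zfp683 was at 0 in all 4 libraries. Cx3cr1 was also at 0 UMIs in all 59 NK-side cells.

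**Figure D3:**
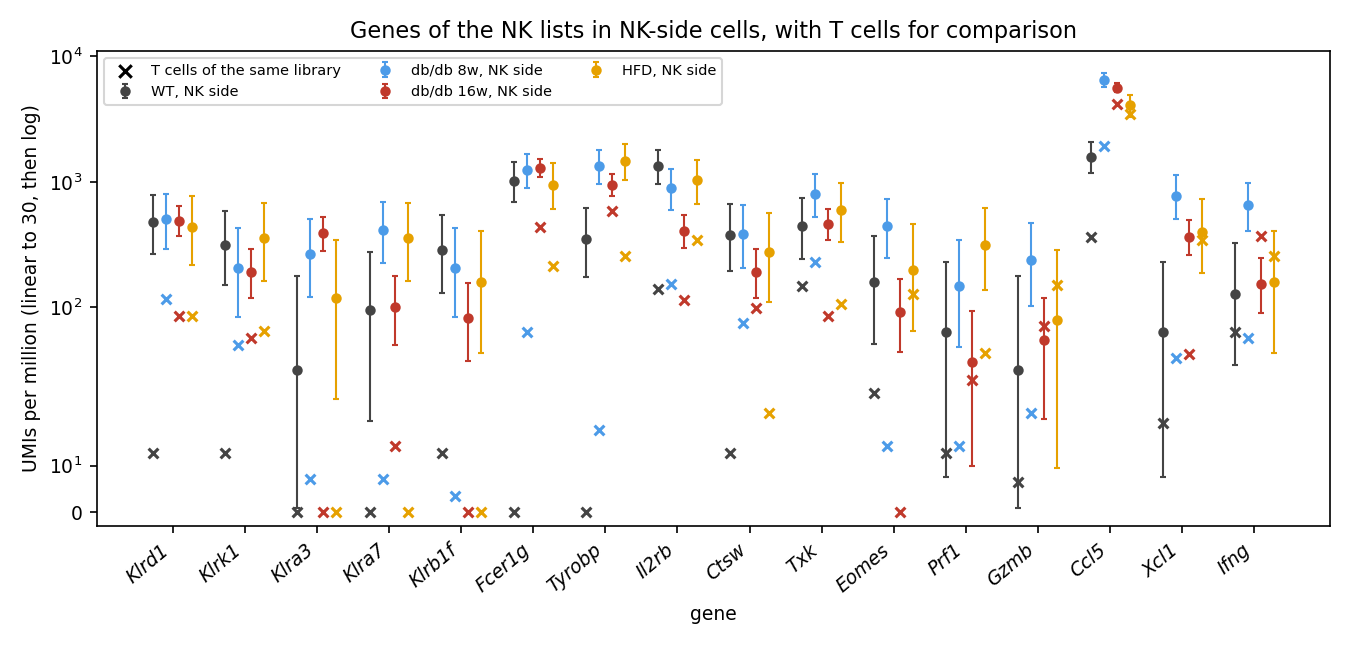
Summed level of NK receptor, granule, transcription factor and cytokine genes in NK-side cells (points, CPM, linear to 30 and logarithmic above, with exact 95% Poisson bars) beside the T cells of the same library (crosses). Klrd1 sits at 434 to 502.3 in NK-side cells of all 4 libraries, while Ccl5 and Xcl1 are lowest in WT, and bars are widest for WT with 5 cells.

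Cell cycle RNA was found in NK-side cells of every library. Mki67, a marker of dividing cells, had UMIs in 1 of 5, 0 of 10, 11 of 35 and 0 of 9 NK-side cells, and Mki67 or Top2a together in 1, 2, 13 and 0. The 23 Mki67 UMIs of WT came from 1 cell. Hmgb2 lay at 2151, 1034, 2536 and 276.2 CPM. After cutting cells to 1000 UMIs, at least 2 UMIs of the 14 cell cycle genes were left in 2 of 5, 5 of 9, 22 of 32 and 3 of 9 NK-side cells. The exact intervals of these shares overlapped, at 21.2 to 86.3% in 8-week db/db and 50.0 to 83.9% in 16-week db/db. Macrophages of the same libraries had 17.9%, 31.6%, 57.9% and 37.4% of cells past that mark, and T cells 48.1%, 46.1%, 41.2% and 61.5%. The part of free RNA in these calls was not tested.

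RNA of fat handling was seen in the HFD cells, but not there alone. Fabp4, a fatty acid carrier of adipocytes, endothelium and macrophages, had 0, 3, 18 and 66 UMIs in NK-side cells and was present in all 9 of those from HFD. It was also present in all 13 T cells and 99.4% of macrophages of HFD, against 2 of 27 T cells and 31.8% of macrophages in WT. Whether these UMIs came from free RNA was not tested. Immediate-early and heat shock genes (Fos, Jun, Hspa1a, Dnajb1 and others) summed to 9396, 12793, 3527 and 6352 CPM in NK-side cells, and in macrophages of the same libraries to 29071, 14139, 4935 and 7221.

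Against T cells of the same library, NK-side cells were told apart by receptor and adaptor genes. NK-side cells were chosen by other NK genes and by the absence of Cd3 UMIs. Higher levels of NK genes therefore follow in part from that choice, and the calls describe the set rather than test its identity. The comparison was added after the data were seen and summed UMIs per library and cell class, so that the 4 libraries served as replicates with the library as a block. edgeR's quasi-likelihood test called 21 of 1163 genes higher (1.81%) and 10 lower (0.86%) at an adjusted p of at most 0.05. These calls rested on 8-week db/db, without which edgeR called 0 genes in either direction, with 64 at an unadjusted p under 0.05. Of the 24 receptor genes 8 had enough counts to be tested and 7 were higher (Klrd1, Klra3, Fcer1g, Klra7, Klrk1, Tyrobp, Klrb1f), with a median log2 difference of 3.13 over the 8 against -0.02 over all genes. Of the 17 NK genes 9 were tested and 7 were higher (Il2rb, Serpinb6b, Klrd1, Serpinb9, Txk, Klrk1, Ctsw), with Klrd1 and Klrk1 standing in both lists.

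Klrd1 had 15, 17, 54 and 11 UMIs in NK-side cells and 2, 33, 6 and 4 in T cells. Its log2 difference was 2.65 ± 0.44 (SE; edgeR adjusted p = 0.00467), and it was higher in 4 of 4 libraries. Klra3 differed by 5.33 ± 0.91 (edgeR adjusted p = 0.00467), on 1, 9, 43 and 3 UMIs against 0, 2, 0 and 0. Fcer1g had 32, 42, 143 and 24 UMIs against 0, 18, 31 and 10 and differed by 3.19 ± 0.62 (edgeR adjusted p = 0.0106). The gap of Fcer1g and Tyrobp was smallest in 16-week db/db and largest in WT and 8-week db/db. Tyrobp, at 11, 45, 104 and 37 UMIs against 0, 5, 41 and 12, differed by 3.08 ± 0.73 (edgeR adjusted p = 0.0344). Klrd1, Klrk1, Klre1, Klrb1f, Klra3 and Klra7 all lie on chromosome 6, from 129045901 (the start of Klrb1f) to 130337574 (the end of Klra3) in the GRCm38 build, in the NK gene complex.

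Genes outside the receptor families also differed. Irf8, an interferon regulatory factor needed for NK cell responses as well as for dendritic cells and monocytes, had 4, 27, 24 and 16 UMIs in NK-side cells against 1, 1, 3 and 1 in T cells (4.83 ± 0.64, edgeR adjusted p = 0.00215). Il2rb differed by 2.22 ± 0.32 (edgeR adjusted p = 0.00323), Xcl1 by 2.32 ± 0.56 (edgeR adjusted p = 0.0401) and Il18rap by 2.28 ± 0.42 (edgeR adjusted p = 0.00702). Eomes, at 5, 15, 10 and 5 UMIs against 4, 4, 0 and 6, missed the threshold (2.87 ± 0.80, edgeR adjusted p = 0.0938), as did Ccl4 (2.17 ± 0.57, edgeR adjusted p = 0.0695). The remaining genes called higher were Ctla2b, Spry2, Ugcg, Arsb, Serinc3 and AW112010.

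T cells were defined by Cd3 UMIs and NK-side cells by their absence, so lower T cell receptor genes follow from the choice of cells. Trac had 33, 56, 19 and 26 UMIs in T cells and 0 in NK-side cells of every library, and Cd8b1 had 10, 40, 13 and 9 against 0. Trbc1 and Trbc2 were not absent, with 26, 25, 32 and 10 and 9, 7, 22 and 15 UMIs in NK-side cells. At least 2 UMIs of T cell receptor constant genes were held by 29 of the 59. By library these were 5 of 5, 6 of 10, 12 of 35 and 6 of 9 cells. Among T cells 26 of 27, 68 of 76, 13 of 25 and 12 of 13 held them. Every NK-side cell of WT thus carried such UMIs, and their bearing on the ratios to WT was not tested. The transcription factor Bcl11b, which T cells and ILC2s need, had 1, 2, 1 and 1 UMIs against 47, 56, 12 and 12 (-3.02 ± 0.51, edgeR adjusted p = 0.00467). Without WT 10 genes were higher and 3 lower, without 16-week db/db 14 and 5, and without HFD 25 and 15. DESeq2 called 16 and 5 on all 4 libraries.

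**Figure D4:**
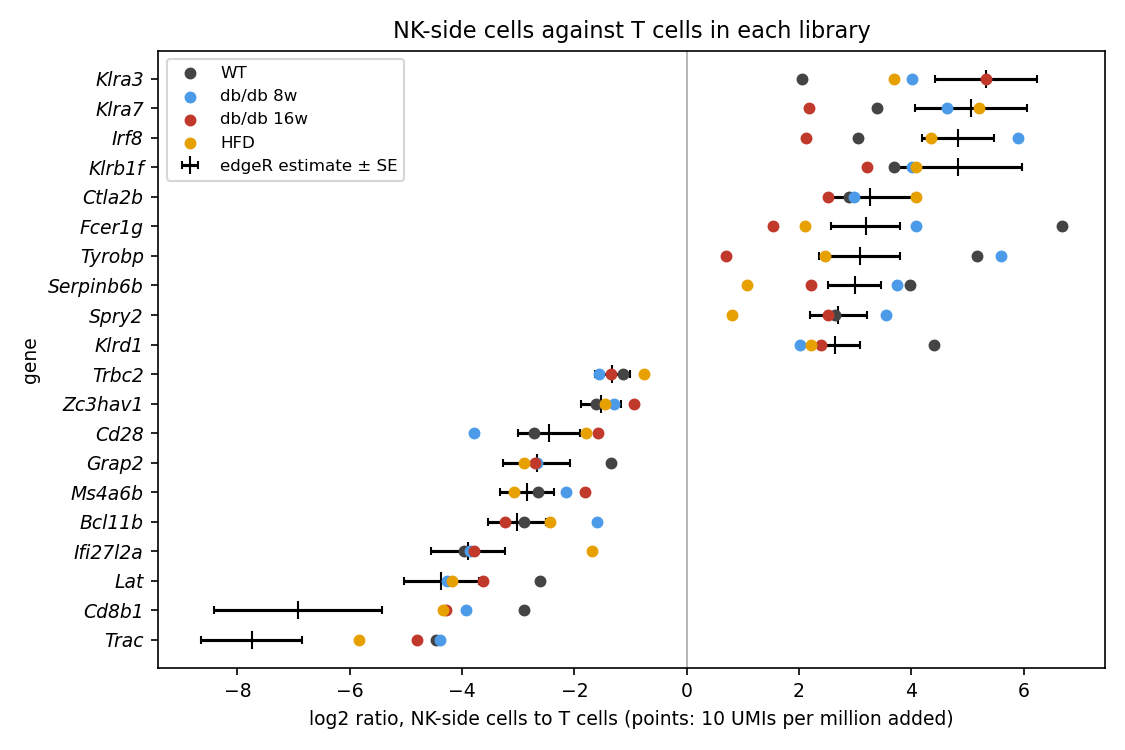
Log2 ratio of NK-side cells to T cells for the 10 most changed genes called in each direction (y), with 1 point per library (10 CPM added) and the edgeR estimate ± SE as a black bar. All 4 points lie on the same side of 0 for each of the 20 genes. Bars of genes with 0 UMIs in NK-side cells, Trac and Cd8b1, depend on edgeR's prior count and are no bounds.

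With all 154 cells set against T cells, the genes called higher included many that macrophages carried at a higher level. edgeR called 95 of 3110 genes higher (3.05%) and 49 lower (1.58%), with 637 at an unadjusted p under 0.05. Of the 95, 39 (41.1%) had a higher level in the macrophages than in these cells in every library, against 11.9% of all 3110 genes tested. Cd14, a lipopolysaccharide co-receptor of monocytes, had 1, 37, 12 and 15 UMIs against 0, 2, 0 and 0 (4.27 ± 0.84, edgeR adjusted p = 0.0137), and Trem2 0, 61, 324 and 89 against 0, 4, 20 and 1 (2.90 ± 0.50, edgeR adjusted p = 0.00979). The lipid genes Plin2, Lpl and Fabp5 were called as well, 3 of the 6 tested of that list. In the Il7r-only cells alone Trem2 had 59, 322 and 87 of those UMIs in 8-week db/db, 16-week db/db and HFD. Without the Il7r-only cells 18 of 2179 genes were higher (0.826%) and 13 lower (0.597%).

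Genes of the ILC2 list were called in that comparison too. Csf2 (GM-CSF) had 187, 125, 1 and 0 UMIs against 3, 2, 0 and 0 in T cells (6.01 ± 0.50, edgeR adjusted p = 0.000131), a difference carried by WT and 8-week db/db. Arg1, the arginase that ILC2s use, had 50, 52, 6 and 1 against 22, 3, 0 and 0 (2.39 ± 0.49, edgeR adjusted p = 0.0174). Of 13 ILC2 genes tested, Csf2 and Arg1 were higher and Bcl11b lower, with a median of 0.92 against 0.05 over all genes. Bhlhe40, a factor that restrains Il10 in lymphocytes, was also higher (1.30 ± 0.29, edgeR adjusted p = 0.028), and Tcf7 of the ILC3 list lower. The whole comparison leaned on the 8-week db/db and HFD libraries: 1 gene was higher and 2 lower without 8-week db/db, 7 and 10 without HFD, and 147 and 55 without WT.

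Cells with Gata3 UMIs carried ILC2 genes in WT and 8-week db/db, and the cytokines they carried differed between these libraries. Csf2 had 187 UMIs in 6 of 13 WT cells and 117 in 18 of 30 8-week db/db cells, or 2688 and 1062 CPM (log2 ratio -1.34, with an interval wholly below 0). Areg, an epidermal growth factor family ligand tied to tissue repair, had 50 UMIs in 8 of 13 and 203 in 19 of 30 cells, or 718.7 and 1843 CPM (1.36, 0.91 to 1.84). Csf2 was thus concentrated in fewer WT cells, and the summed Areg level was higher in 8-week db/db. Areg was also higher there in all cells outside the chosen set, at 162.5 CPM against 17.1 in WT. T cells held an Areg UMI in 2 of 27 and 5 of 76 cells, and macrophages in 3.04% and 12.0%. After cutting cells to 1000 UMIs, 4 of 13 (9.09 to 61.4%) and 14 of 30 (28.3 to 65.7%) cells with Gata3 UMIs held Areg, so the intervals overlapped. The part of free RNA in the Areg ratio was not tested. Il13, the cytokine that drives alternative macrophage activation, had 9 UMIs in 2 cells and 34 in 5 (1.25, 0.16 to 2.50), and Il5, the eosinophil growth factor, had 9 in 6 and 19 in 7 (0.42, -0.80 to 1.74).

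Receptor and surface genes of these cells differed in both directions in 8-week db/db. Il1rl1 had 54 UMIs in 11 of 13 WT cells and 34 in 19 of 30 8-week db/db cells (-1.33, -1.99 to -0.69), at median depths of 5280 and 3064.5 UMIs, and in macrophages a UMI was seen in 3.41% and 4.24% of cells at 4753 and 2262. After cutting cells to 1000 UMIs, 4 of 13 cells (30.8%, 9.09 to 61.4%) and 10 of 30 (33.3%, 17.3 to 52.8%) still held an Il1rl1 UMI, so a difference in the share of cells with it was not detectable at equal depth. Klrg1, an inhibitory receptor of mature ILC2s, had 22 and 13 UMIs (-1.42, -2.53 to -0.37). Il2ra (CD25), at 33 and 48 UMIs, and Rora, at 77 and 142, had intervals that included equality (-0.12, -0.79 to 0.56, and 0.22, -0.19 to 0.64). Calca, which encodes the neuropeptide CGRP, had 7 and 36 UMIs (1.70, 0.51 to 3.11), and Pdcd1 (PD-1) had 2 UMIs in 2 cells and 24 in 6 (2.92, 0.91 to 6.05). Of 14 ILC2 genes with at least 20 UMIs over these libraries, 4 were at least 2-fold higher (Areg, Il13, Icos, Calca) and 4 at least 2-fold lower (Klrg1, Il1rl1, Csf2, Lpcat2) in 8-week db/db, where 7.02% and 5.55% of 1082 genes were past those folds. The summed list stood at 7963 and 7108 CPM.

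Among other genes with the clearest ratios in 8-week db/db were Dusp4, a MAP kinase phosphatase (26 UMIs against 1 in WT), Rnf128, a ubiquitin ligase linked to lymphocyte anergy (39 against 6), and Ctla2a (208 against 58, log2 ratio 1.18, 0.75 to 1.63) on the higher side. On the lower side were Dnajb1, a heat shock co-chaperone of the immediate-early and heat shock list (28 against 128, -2.86, -3.50 to -2.26), the cytokine Lif (6 against 23) and Nrgn (15 against 37). Heat shock and immediate-early genes were lower in T cells and macrophages of 8-week db/db as well, and summed in cells with Gata3 UMIs to 21762 CPM in WT and 12764 in 8-week db/db. The conventional dendritic cell list, mainly Cd74 and H2-Ab1, summed to 287.5 CPM in WT and 2624 in 8-week db/db, and in 8-week db/db 7 of the 30 cells held at least 2 UMIs of it. The part of these cells in the other differences was not tested.

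In 16-week db/db and HFD only 6 cells and 1 cell of the Gata3/Il7r side carried Gata3 UMIs, and 7 and 1 NK-side cells of these libraries held some too. Csf2 had 0 UMIs in both, Areg 1 and 0, Il13 0 and 0, Il5 1 and 0, and Il1rl1 6 UMIs in 3 of 6 cells and 1 UMI in the 1 HFD cell. Depth limits these values, since 0 UMIs in the 6 cells allows up to 375 CPM and in the 1 HFD cell up to 1808 (exact upper bounds). Calca had 9 UMIs in 2 of the 6 16-week db/db cells (log2 ratio to WT 3.18, 1.59 to 4.84). Of the ILC3 genes, Il23r, Il22, Il17f, Ccr6 and Tcf7 were at 0 UMIs in all 50 cells, Il17a had 5 UMIs in 1 WT cell, and Kit had 6, 16, 1 and 0 UMIs. Trbc1 and Trbc2 were present, as in NK-side cells, and 34 of the 50 held at least 2 T cell receptor constant-gene UMIs. By library these were 11 of 13, 20 of 30, 2 of 6 and 1 of 1 cells, and their part in the ratios to WT was not tested. Trac had 2 UMIs in all and Tcrg-C4 13, 9, 1 and 0.

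**Figure D5:**
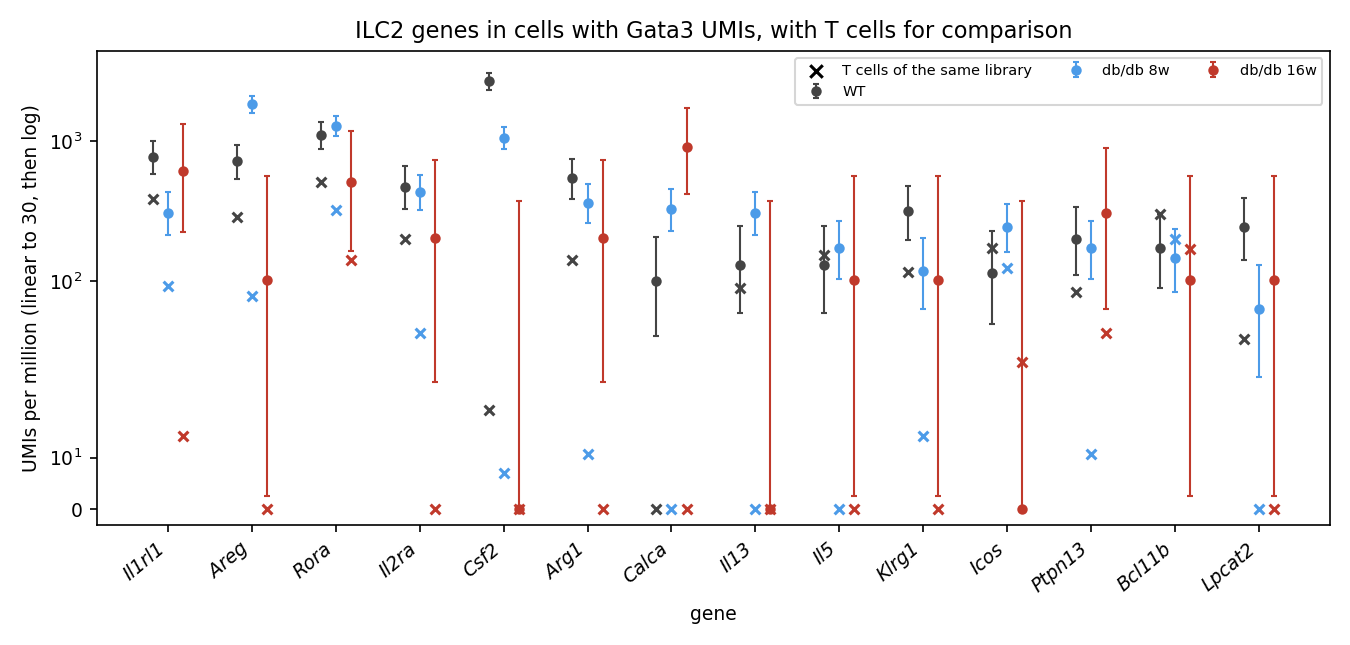
Summed level of ILC2 genes in cells with Gata3 UMIs of WT, 8-week db/db and 16-week db/db (points, CPM, linear to 30 and logarithmic above, exact 95% Poisson bars), beside the T cells of the same library (crosses). HFD is left out because it held 1 such cell. Areg is higher and Csf2 lower in 8-week db/db than in WT, and the bars of 16-week db/db, with 6 cells, span most of the range.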

How the data were processed

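Single-cell 3′ gene expression was measured with 10x Chromium in 4 BAT SVF libraries. The authors deposited UMI counts per gene and barcode, made with Cell Ranger 7.1.0 on mm10 per the labels' processing notes; the counts are raw and not normalized. Following the study's methods, a barcode was kept when its genes detected lay between 250 and 6000, its UMIs between 500 and 30000, and its mitochondrial share below 15%. No doublets were removed; Scrublet (scanpy 1.11.5) marked 3 of the chosen cells. The members and gene lists were chosen with earlier results of these data known.

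Counts were summed per library and cell class and tested with edgeR 4.0.16 (R 4.3.3; quasi-likelihood, TMM, low-count filter, library as block, Benjamini-Hochberg adjustment, threshold 0.05), with DESeq2 1.42.0 as an alternative. The code was tested on simulated data for all chosen cells against T cells. It recovered 6 of 70 genes changed by a log2 of 1 and 63 of 75 changed by a log2 of 2. Of its 70 calls 1 was false. A gene that missed the threshold is therefore not shown to be unchanged. The simulated counts had no differences between libraries and the same fixed dispersion for every gene. These rates therefore need not hold for the real counts, nor for the NK-side comparison, which was not simulated. In the comparisons with T cells the libraries are the only replicates, each a pool of animals. The planned test of NK-side cells against the other chosen cells could not be fitted, because fewer than 3 libraries held 10 cells on both sides. Between libraries no test was made. Levels are CPM, UMIs scaled to 1e+06 per summed class, with exact Poisson or binomial 95% intervals, which cover counting error only; log2 ratios between libraries are of summed counts. Named genes were the 10 with the largest fold among those called and moved the same way in every library, 8 in each direction between libraries, and list genes. The 8 were ranked by the bound of the ratio's interval nearest 0. They needed at least 20 UMIs over both libraries and, in the higher library, a level at least 2-fold that of all other cells. Alternatives are given in the closing section. Gene positions are from GENCODE vM21 (GRCm38). Levels were not compared between genes.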

Additional observations from a re-analysis of the deposited data

Results flagged for a closer look

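In 4 gene lists the NK-side cells of different obese libraries lay on opposite sides of WT, with intervals that excluded equality. The differences were not tested, since each group had 1 library, and the WT values rest on 5 cells. The NK genes outside the rule had a summed log2 ratio to WT of 0.47 in 8-week db/db and -0.53 in 16-week db/db. The cell cycle list had 0.27 in 16-week db/db, -1.62 in 8-week db/db and -1.73 in HFD, and the 23 Mki67 and 12 Top2a UMIs behind its WT level came from 1 cell. Immediate-early and heat shock genes had 0.45 in 8-week db/db, -1.41 in 16-week db/db and -0.56 in HFD. The conventional dendritic cell list had 2.60 in HFD, on 39 UMIs against 8 in WT, and -2.80 in 16-week db/db on 4 UMIs. In HFD 4 of the 9 cells held at least 2 UMIs of that list.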

How the results depend on the processing

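Shares, fits and list levels were recomputed under other settings, some of them (no Il7r-only cells, NK side only, under 10000 UMIs) chosen after seeing the data. Of the values for whole comparisons 86 kept their direction and size, 67 moved and 3 reversed, and of those for single genes 180 kept their call and 44 lost it. The cause of the moves was not tested. The share of NK and innate lymphoid cells, in the order WT, 8-week db/db, 16-week db/db and HFD, became 1.84%, 1.48%, 2.74% and 0.746% among Ptprc cells, 1.57%, 1.67%, 1.80% and 0.925% with no stromal or endothelial cells in the denominator, and 0.0168%, 0.197%, 0.617% and 0.110% with cells holding UMIs of other lineages removed. Without Il7r-only cells it was 0.343%, 0.703% and 0.183% in the obese libraries, and with the limits dropped 3.05%, 3.50% and 10.9%. With the limits dropped, 19 of 355, 41 of 204 and 26 of 596 cells were on the NK side. Cut to 1000 UMIs, WT and 8-week db/db stood at 0.157% and 0.349%. In 16-week db/db at least 2 or 4 marker UMIs gave 1.44% or 0.703%, and a mitochondrial limit of 25% gave 0.634% in HFD. The NK side made up 0% of the 1 WT cell left with other lineages removed, and 0% in HFD at a limit of 10%. In 16-week db/db it was 75.6% with at least 4 marker UMIs, 85.4% without Il7r-only cells and 79.5% under 10000 UMIs, and in HFD 90% without Il7r-only cells.

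Against T cells, edgeR's 95 higher and 49 lower genes became 55 and 29 with DESeq2, 260 and 88 with no filter on low counts, 21 and 10 with NK-side cells only, and 18 and 13 without Il7r-only cells. The fit has the library as its block because each library gave both classes, and without that block 0 were higher (327 genes of either direction at an unadjusted p under 0.05) and 7 lower. T cells with at least 3 Cd3 UMIs gave 55 higher, and removing other lineages 104 lower. Leaving out 1 library at a time gave 1 to 147 higher and 2 to 65 lower, the lowest without 8-week db/db, and 7 and 10 without HFD. The planned test of the NK side against the Gata3/Il7r side could not be fitted, so its alternatives were not run.

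The summed log2 ratio of the ILC2 list over all chosen cells, in 8-week db/db, 16-week db/db and HFD, was -1.65, -5.15 and -6.92 with other lineages removed, -1.60, -2.46 and -2.96 on the NK side, -0.13, -3.28 and -3.81 without Il7r-only cells, and -0.56, -3.06 and -3.57 as a mean over cells. On the Gata3/Il7r side it was -0.87 and -5.33 in the db/db libraries. The NK list in 16-week db/db was -0.46 and turned to 0.26 with other lineages removed, 0.80 without Il7r-only cells and 0.38 as a mean over cells. On the Gata3/Il7r side it was 1.10, -0.79 and 1.07. In 8-week db/db it was 0.82 with other lineages removed and 0.47 on the NK side, and in HFD 1.56 without Il7r-only cells and 0.74 as a mean over cells. Depth limits the small sets most, since 5 NK-side cells in WT and 1 HFD cell with Gata3 UMIs set those levels.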
